A study of Mus musculus with 8 samples.

Results

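Mucosal antimicrobial and defense genes were followed in cecal tumors of mice, after tamoxifen and after vehicle. The set holds 10 genes out of 34586 gene symbols in the deposited table: Reg3b, Reg3g, Ang4, Retnlb, Lcn2, Pigr, Nos2, Duox2, Duoxa2 and Lypd8. A total of 9 were matched by symbol, and Lypd8 was matched by its gene identifier because the table lists it under the older symbol 2210415F13Rik. Ang4 was picked for its higher level after tamoxifen in these same tumors, so its values are given as a description and it was not tested. The other 9 genes were chosen by name for their function, with earlier results of these data known.

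The tumors are mouse models of gastrointestinal stromal tumor (GIST), a sarcoma of the gut wall related to the interstitial cells of Cajal. All 8 tumors came from C57BL/6 mice with 1 Kit V558Delta allele and 1 normal Kit allele, Etv1 flox/flox, and CreERT2 on both copies of Rosa26. The groups were 4 tumors from mice given tamoxifen, which activates CreERT2 and so deletes Etv1, and 4 tumors from mice given vehicle. The vehicle tumors therefore carry the floxed gene and the Cre as well, and the study compared them to see what loss of this transcription factor does to tumor gene expression. The Rosa26 locus is active in nearly all cell types, so the Cre is not specific to tumor cells, and the cell types in which recombination took place were not measured. An effect of tamoxifen itself and an effect of Etv1 loss cannot be told apart with these groups. The age of the mice and the dose and timing of tamoxifen were not given in those sources that were used here. Values are gene-level FPKM, that is, fragments mapped to a gene scaled by transcript length and library size. No label says whether each replicate was a different mouse, and the p-values cover the spread among these libraries, which may be technical. Etv1 itself measured 34.9, 19.7, 31.4 and 17.4 FPKM in tamoxifen tumors, against 34.6, 51.1, 40.4 and 38.6 FPKM in vehicle tumors (log2 fold change -0.70, limma adjusted p = 0.13). The groups overlapped, since tamoxifen replicate 1 exceeded vehicle replicate 1, and the gene-level value counts any transcribed exons that the deletion leaves in place.

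The epithelium of the large intestine holds bacteria at a distance with a chemical barrier. Goblet cells and absorptive cells, with Paneth cells that are sparse in the mouse cecum, secrete bactericidal lectins, ribonucleases and resistin-like proteins. The polymeric immunoglobulin receptor carries IgA into the lumen. Oxidases at the apical membrane and the inducible nitric oxide synthase add reactive oxygen and nitrogen species. Many of these genes are induced by bacterial products and by cytokines such as IL-22, IL-17 and interferon gamma.

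Of the 9 genes chosen by name, 8 had a higher mean log2 level after tamoxifen and 1, Pigr, had a lower one, but 0 of 9 passed the threshold of 0.05 on the limma adjusted p (0.0949 to 0.334). Across all 15023 tested genes, 5.45% passed, with 2.38% higher and 3.07% lower after tamoxifen. At an unadjusted p under 0.05, 6 of the 9 passed, against 22.4% of all tested genes. A positive change was seen in 50.6% of all tested genes, whose median log2 fold change was 0.01, while the median over the 9 was 1.58. In 3 of the 9, namely Duox2, Duoxa2 and Lypd8, every tamoxifen value lay above every vehicle value, which 7.37% of all tested genes did. In 0 of the 9 did every tamoxifen value lie below, against 7.74% of all tested genes. Because the 9 were chosen with earlier results of these data known, these comparisons with all tested genes are a description only.

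The libraries were not alike within a group. Tamoxifen replicate 4 gave the highest value of the 8 libraries for 8 of the 10 genes, and vehicle replicate 3 gave the lowest for 8 of 10. Lcn2 was highest in tamoxifen replicate 2 and Pigr in vehicle replicate 2. Ang4 was lowest in vehicle replicate 4 and Pigr in tamoxifen replicate 3. Without tamoxifen replicate 4 or without vehicle replicate 3, 0 of the 9 genes passed, and in those fits 783 of 14976 and 268 of 15059 tested genes did.

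**Figure D1:**
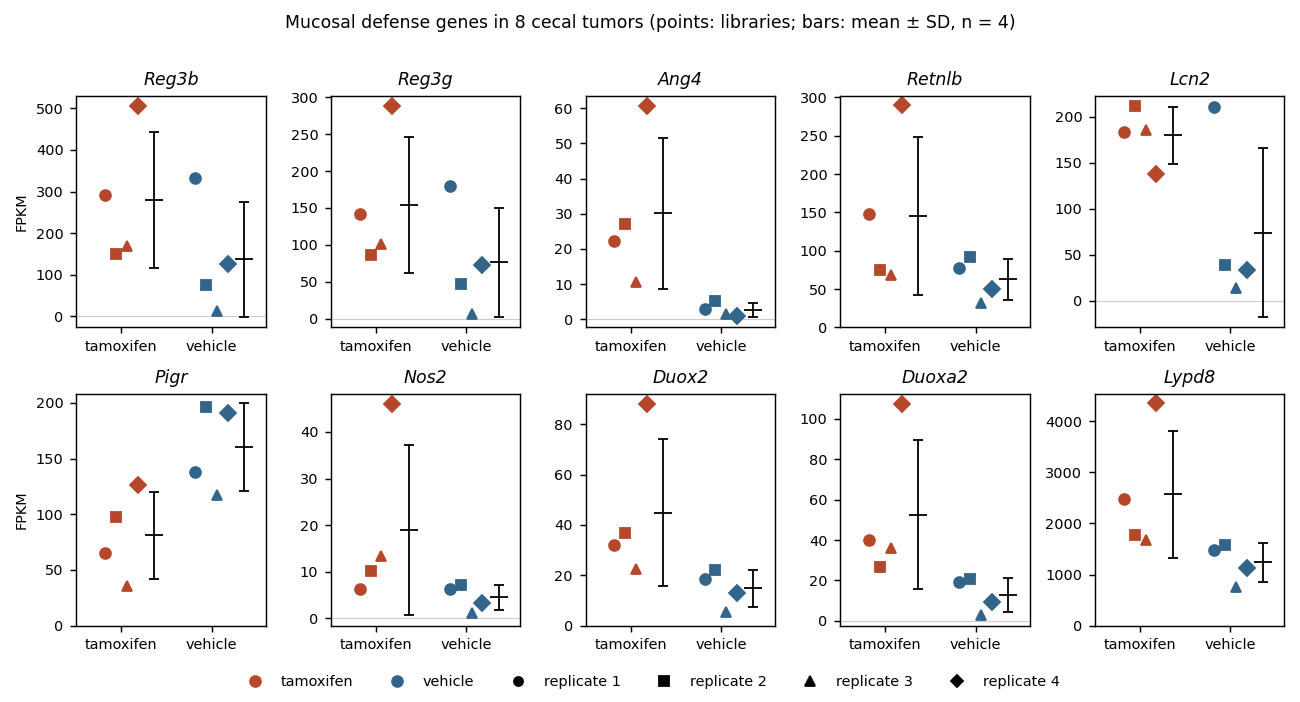
FPKM (vertical axes) of each of the 10 genes in the tamoxifen and vehicle tumors; each point is a library, its shape the replicate number, and the bars show the mean ± SD of 4 libraries. Tamoxifen replicate 4 is the top point for 8 genes, while Lcn2 in vehicle replicate 1 lies at the height of the tamoxifen group.

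The windows around the transcript starts of 4 members are shown, because 3 belong to gene pairs whose levels ran together across tumors and Ang4 had the largest difference in mean log2 level. RefSeq (GRCm38.p6) gave promoter windows for 8 of the 10 genes, from 250 bases before the start to 50 after it. Capitals mark matches, on either strand, to TTCNNNGAA, TGANTCA (an AP-1 type site), TATAAA and the NF-kappaB consensus. Reg3b is at chr6:78370635-78370934 (plus strand), Reg3g at chr6:78468825-78469124 (minus strand), Ang4 at chr14:51773541-51773840 (minus strand) and Duoxa2 at chr2:122298650-122298949 (plus strand).
Reg3b: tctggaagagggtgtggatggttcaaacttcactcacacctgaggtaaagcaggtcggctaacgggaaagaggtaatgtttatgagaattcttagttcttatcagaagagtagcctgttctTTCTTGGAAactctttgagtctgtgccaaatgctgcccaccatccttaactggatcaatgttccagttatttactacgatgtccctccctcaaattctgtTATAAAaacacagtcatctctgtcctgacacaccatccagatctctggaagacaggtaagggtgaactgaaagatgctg
Reg3g: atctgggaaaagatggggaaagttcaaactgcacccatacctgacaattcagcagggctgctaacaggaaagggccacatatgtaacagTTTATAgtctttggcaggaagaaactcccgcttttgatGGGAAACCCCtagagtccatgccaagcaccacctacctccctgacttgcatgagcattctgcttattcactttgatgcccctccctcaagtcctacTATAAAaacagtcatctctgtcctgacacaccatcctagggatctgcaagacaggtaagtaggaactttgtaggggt
Ang4: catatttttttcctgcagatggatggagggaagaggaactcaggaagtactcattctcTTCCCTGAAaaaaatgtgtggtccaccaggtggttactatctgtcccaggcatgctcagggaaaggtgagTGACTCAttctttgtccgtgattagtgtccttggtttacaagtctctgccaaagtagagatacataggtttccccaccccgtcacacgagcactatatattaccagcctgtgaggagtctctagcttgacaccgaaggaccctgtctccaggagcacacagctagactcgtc
Duoxa2: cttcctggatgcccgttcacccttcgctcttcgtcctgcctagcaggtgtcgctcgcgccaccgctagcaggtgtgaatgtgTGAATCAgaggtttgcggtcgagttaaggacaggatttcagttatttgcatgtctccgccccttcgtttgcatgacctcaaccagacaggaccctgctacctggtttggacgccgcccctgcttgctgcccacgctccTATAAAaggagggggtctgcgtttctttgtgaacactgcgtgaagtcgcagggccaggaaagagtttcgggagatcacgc
The Reg3b and Reg3g windows were identical at 207 of 304 alignment columns, or 68.1%, and shared a run of 29 identical bases that begins at -20 of Reg3b. Counting the start as 1, with no position 0, TATAAA began at -29 in Reg3b, -27 in Reg3g and -30 in Duoxa2, with another at -161 on the other strand in Reg3g, and was present in 13.6% of 32851 promoter windows of this length. The other motifs marked were in 8.3% (TTCNNNGAA), 7.81% (TGANTCA) and 4.51% (NF-kappaB consensus) of them. In Reg3b the TTCNNNGAA match began at -129, and in Reg3g, whose window does not hold these letters, the NF-kappaB match began at -123. In Ang4, TTCNNNGAA began at -192 and TGANTCA at -122, and in Duoxa2 TGANTCA began at -168. None of these motifs overlapped another in the windows shown. Of the windows not shown, those of Duox2 (the partner of Duoxa2), Lcn2 and Lypd8 held none of the marked motifs. The Pigr window held TTCNNNGAA, beginning at 40.

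Reg3b (ENSMUSG00000071356, chromosome 6, 78320879 to 78323460 in mm9) and Reg3g (ENSMUSG00000030017, chromosome 6, 78416263 to 78418866) encode secreted C-type lectins that bind bacterial surfaces. Reg3g kills Gram-positive bacteria. Reg3b measured 292, 150.2, 169 and 505 FPKM in tamoxifen replicates 1 to 4, against 332, 76.6, 13.6 and 125 FPKM in vehicle replicates 1 to 4. The groups overlapped, because vehicle replicate 1 exceeded 3 of the 4 tamoxifen tumors. Reg3b averaged 279 ± 163 FPKM in tamoxifen tumors and 137 ± 138 FPKM in vehicle tumors (SD, n = 4 each; log2 fold change 1.58, SE 0.87, limma adjusted p = 0.324).

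Reg3g measured 142, 86.1, 102 and 288 FPKM in the tamoxifen tumors, against 179.7, 46.8, 6.33 and 72.6 FPKM in the vehicle tumors. The order of the 8 tumors was the same as for Reg3b. The mean was 154 ± 92.1 FPKM in tamoxifen and 76.4 ± 74.1 FPKM in vehicle tumors (SD, n = 4 each; log2 fold change 1.58, SE 0.89, limma adjusted p = 0.334). The FPKM ratio of Reg3g to Reg3b was 0.485 to 0.603 in tamoxifen and 0.466 to 0.611 in vehicle tumors, although the vehicle tumors differed 24.4-fold in Reg3b and 28.4-fold in Reg3g. The 2 genes are close relatives, and the handling of reads that fit both by the authors' counting is not known here, so their single values and this ratio are uncertain. Their relatives Reg3a and Reg3d, named after their values were seen, stayed under 1 FPKM in all 8 libraries.

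**Figure D2:**
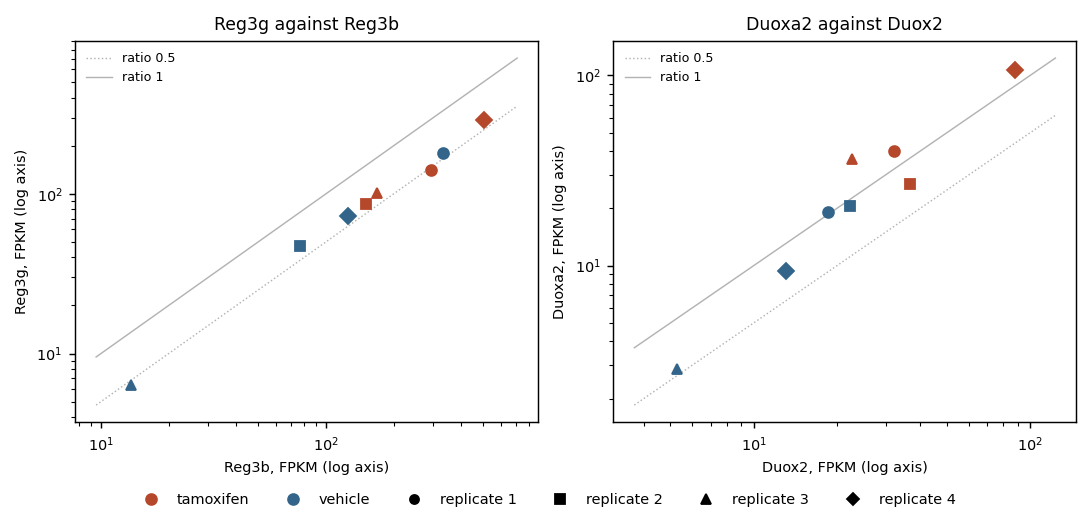
Left, Reg3g against Reg3b, and right, Duoxa2 against Duox2, in FPKM on log axes, 1 point per library, with lines at ratios of 0.5 and 1. The Reg3 points follow the ratio of 0.5 closely (0.466 to 0.611), and the Duoxa2 to Duox2 ratio is wider, at 0.541 to 1.6.

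Ang4 (ENSMUSG00000060615, chromosome 14, 52383553 to 52393265), a bactericidal member of the RNase A family made in mouse Paneth and goblet cells, was the gene picked for its rise. It measured 22.2, 27.0, 10.7 and 60.6 FPKM in tamoxifen tumors, against 2.79, 5.29, 1.62 and 0.805 FPKM in vehicle tumors. The groups did not overlap, which the choice of the gene fixes. The ratio of the group means was 11.5 and the log2 fold change of FPKM + 1 was 3.01. Of the other members of the RNase A family, 0 of 3 tested rose or fell. Rnase6, an antimicrobial ribonuclease of myeloid cells, measured 5.71 ± 1.2 FPKM in tamoxifen and 11.2 ± 3.91 FPKM in vehicle tumors (SD, n = 4 each; limma adjusted p = 0.104), and passed without vehicle replicate 3 (adjusted p = 0.0479). Paneth cells are sparse in the mouse cecum, and Paneth markers were low in both groups: the 6 listed genes summed to 2.18 to 16.2 FPKM in tamoxifen and 0.843 to 6.76 FPKM in vehicle tumors, and 2 of them were at 0 in all libraries. The Paneth lysozyme Lyz1 measured 3.89 ± 2.07 FPKM in tamoxifen and 2.69 ± 2.32 FPKM in vehicle tumors (SD, n = 4 each; limma adjusted p = 0.617). Their part in the Ang4 level was not tested.

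Retnlb (ENSMUSG00000022650, chromosome 16, 48816969 to 48819004) encodes a resistin-like protein that goblet cells secrete. It measured 148, 75.5, 67.8 and 289 FPKM in tamoxifen tumors, against 76.9, 92.2, 32.1 and 50.6 FPKM in vehicle tumors. The groups overlapped, with tamoxifen replicates 2 and 3 inside the vehicle range. The means were 145 ± 103 FPKM in tamoxifen and 63.0 ± 26.8 FPKM in vehicle tumors (SD, n = 4 each; log2 fold change 1.05, SE 0.50, limma adjusted p = 0.262). Of 8 goblet cell markers, 0 rose or fell, with 4 positive and 4 negative changes. The mucin gene Muc2 measured 70.4 ± 42.5 FPKM in tamoxifen and 37.6 ± 8.07 FPKM in vehicle tumors (SD, n = 4 each; limma adjusted p = 0.254). The chloride channel regulator Clca3 measured 4.91 ± 4.15 FPKM in tamoxifen and 17.8 ± 13.9 FPKM in vehicle tumors (SD, n = 4 each; limma adjusted p = 0.14). Among the relatives of Retnlb, 1 of 3 tested genes rose: Retnlg, a resistin-like gene of neutrophils, averaged 8.31 ± 6.03 FPKM in tamoxifen and 0.641 ± 0.587 FPKM in vehicle tumors (SD, n = 4 each; log2 fold change 2.27, limma adjusted p = 0.0473), a call kept without tamoxifen replicate 1 and lost without each of the other 7 libraries (adjusted p up to 0.129). The other 2 had negative changes, Retnla of -1.53 and Retn of -0.71 (limma adjusted p = 0.066 and 0.283). The median of the 3 was -0.71.

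Lypd8 (ENSMUSG00000013643, chromosome 11, 58192545 to 58204230) encodes a protein anchored on large-intestinal epithelium that binds flagella and keeps motile bacteria off the mucosa. It was the most abundant of the 10, and its mean level ranked 31 among all tested genes. It measured 2485, 1766, 1683 and 4353 FPKM in tamoxifen tumors, against 1486, 1579, 760.3 and 1123 FPKM in vehicle tumors. Every tamoxifen value lay above every vehicle value, by a narrow margin between tamoxifen replicate 3 and vehicle replicate 2. The means were 2572 ± 1241 FPKM in tamoxifen and 1237 ± 374 FPKM in vehicle tumors (SD, n = 4 each; log2 fold change 1.00, SE 0.35, limma adjusted p = 0.141). Without tamoxifen replicate 4 the log2 fold change was 0.71 (adjusted p = 0.2).

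Pigr (ENSMUSG00000026417, chromosome 1, 132723261 to 132748826) encodes the receptor that carries dimeric IgA from the tissue across the epithelium, and was the 1 gene of the set with a negative change. It measured 64.9, 97.2, 35.9 and 126 FPKM in tamoxifen tumors, against 138, 197, 117 and 191 FPKM in vehicle tumors. The groups overlapped only through tamoxifen replicate 4, which exceeded vehicle replicate 3. The means were 81.1 ± 39.2 FPKM in tamoxifen and 161 ± 39.3 FPKM in vehicle tumors (SD, n = 4 each; log2 fold change -1.09, SE 0.37, limma adjusted p = 0.13). Without tamoxifen replicate 4 the change was -1.35 and the adjusted p 0.0688. Of 8 tested genes of IgA production, 0 rose and 1 fell, with a median of -0.35. Ccr10, the chemokine receptor of IgA plasma cells, fell to 0.833 ± 0.343 FPKM in tamoxifen tumors, against 2.52 ± 0.258 FPKM in vehicle tumors (SD, n = 4 each; log2 fold change -0.96, limma adjusted p = 0.02). That call was kept without tamoxifen replicates 1, 3 or 4 and lost without each of the other 5 libraries (adjusted p up to 0.0658). The joining chain gene Igj, whose product links IgA into dimers, measured 639 ± 350 FPKM in tamoxifen and 833 ± 448 FPKM in vehicle tumors (SD, n = 4 each; limma adjusted p = 0.694). Plasma cell markers summed to 310 to 1032 FPKM in tamoxifen and 394 to 1522 FPKM in vehicle tumors, with 0 of 6 past the threshold.

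Lcn2 (ENSMUSG00000026822, chromosome 2, 32240153 to 32243317) encodes lipocalin 2, which binds the siderophores that bacteria use to take up iron and is made both by epithelium and in neutrophil granules. It measured 184, 212, 185 and 138 FPKM in tamoxifen tumors, against 211, 38.5, 14.0 and 33.4 FPKM in vehicle tumors. The tamoxifen values lay within a 1.53-fold range, while vehicle replicate 1 stood far above the other vehicle tumors and inside the tamoxifen range. The means were 179.7 ± 30.6 FPKM in tamoxifen and 74.1 ± 91.6 FPKM in vehicle tumors (SD, n = 4 each; log2 fold change 1.97, SE 0.69, limma adjusted p = 0.137). Without vehicle replicate 1 the vehicle mean was 28.6 ± 12.9 FPKM (SD, n = 3), the log2 fold change was 2.71 and the limma adjusted p was 0.0175, the one setting of those tried in which any of the 9 genes passed. Neutrophil markers moved the same way: 4 of 6 tested rose, 6 of 6 had a positive change, and the list of 8 summed to 181 to 474 FPKM in tamoxifen and 7.52 to 27.7 FPKM in vehicle tumors. Vehicle replicate 1 had the highest sum of the vehicle group, still below all tamoxifen tumors. The other 2 tested markers, Csf3r and Mmp8, did not pass (log2 fold change 0.17 and 1.03, limma adjusted p = 0.858 and 0.176). Cxcr2 and Ngp were below the filter. Ly6g, a neutrophil surface protein, averaged 147 ± 33.0 FPKM in tamoxifen and 1.96 ± 1.79 FPKM in vehicle tumors (SD, n = 4 each; log2 fold change 5.84, limma adjusted p = 0.00225). The markers did not rank the tamoxifen tumors alike. In tamoxifen replicate 1, Ly6g gave 170 of the 229 FPKM summed, while S100a8 (33.7 FPKM) and Retnlg (1.88 FPKM) were the lowest of their group. The part of neutrophils in the Lcn2 level was not tested.

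Nos2 (ENSMUSG00000020826, chromosome 11, 78734289 to 78773756) encodes the inducible nitric oxide synthase of epithelium and macrophages. It measured 6.21, 10.2, 13.4 and 45.9 FPKM in tamoxifen tumors, against 6.39, 7.07, 1.13 and 3.37 FPKM in vehicle tumors. Tamoxifen replicate 4 was high, and tamoxifen replicate 1 lay below vehicle replicates 1 and 2. The means were 18.9 ± 18.2 FPKM in tamoxifen and 4.49 ± 2.76 FPKM in vehicle tumors (SD, n = 4 each; log2 fold change 1.66, SE 0.62, limma adjusted p = 0.159). Without tamoxifen replicate 4 the tamoxifen mean was 9.93 ± 3.59 FPKM (SD, n = 3; log2 fold change 1.12, adjusted p = 0.22). Of the cytokines known to induce Nos2, the interferon gamma gene Ifng was below the filter, at 0.206 to 0.971 FPKM in tamoxifen and 0.552 to 1.32 FPKM in vehicle tumors. The interleukin 1 beta gene Il1b measured 8.79 ± 5.59 FPKM in tamoxifen and 12.1 ± 9.51 FPKM in vehicle tumors (SD, n = 4 each; limma adjusted p = 0.873). The tumor necrosis factor gene Tnf, named after its values were seen, had a positive change (log2 fold change 0.66, limma adjusted p = 0.218). It measured 3.63 to 8.33 FPKM in tamoxifen and 1.5 to 3.73 FPKM in vehicle tumors. Macrophage markers summed to 488 to 1080 FPKM in tamoxifen and 545 to 804 FPKM in vehicle tumors, with 0 of 8 past the threshold.

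Duox2 (ENSMUSG00000068452, chromosome 2, 122104983 to 122124185), the epithelial oxidase that releases hydrogen peroxide, and Duoxa2 (ENSMUSG00000027225, chromosome 2, 122124636 to 122139466), the factor that lets it reach the cell surface, are neighbours on the chromosome. Duox2 measured 32.2, 36.7, 22.6 and 88.0 FPKM in tamoxifen tumors, against 18.6, 22.3, 5.29 and 13.1 FPKM in vehicle tumors. The groups did not overlap, although tamoxifen replicate 3 and vehicle replicate 2 were nearly equal. The means were 44.9 ± 29.3 FPKM in tamoxifen and 14.8 ± 7.39 FPKM in vehicle tumors (SD, n = 4 each; log2 fold change 1.51, SE 0.50, limma adjusted p = 0.119).

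Duoxa2 measured 39.8, 26.8, 36.2 and 107 FPKM in tamoxifen tumors, against 19.1, 20.6, 2.86 and 9.35 FPKM in vehicle tumors. The groups did not overlap, and the adjusted p was the smallest of the 9 genes. The means were 52.5 ± 36.8 FPKM in tamoxifen and 13.0 ± 8.37 FPKM in vehicle tumors (SD, n = 4 each; log2 fold change 2.01, SE 0.61, limma adjusted p = 0.0949). The FPKM ratio of Duoxa2 to Duox2 ran from 0.728 to 1.6 in tamoxifen and from 0.541 to 1.03 in vehicle tumors, so those ranges overlapped. The sister pair had low levels. Duox1 stayed at or below 0.0314 FPKM in tamoxifen and 0.0178 FPKM in vehicle tumors, and Duoxa1, which the table places in the same locus as Duoxa2, measured 0.362 to 1.36 FPKM in tamoxifen and 0.0636 to 0.254 FPKM in vehicle tumors. How reads in this shared locus were assigned to each of the 2 genes is not known here. Of 18 tested genes for other oxidases, peroxidases and arginine enzymes, 0 rose or fell, and the median change was 0.13. The endothelial nitric oxide synthase gene Nos3, with the smallest p of that list, measured 2.52 ± 0.359 FPKM in tamoxifen and 1.51 ± 0.319 FPKM in vehicle tumors (SD, n = 4 each; limma adjusted p = 0.103).

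Epithelium markers moved with the defense genes, and their part in the result was not tested. The covariate fit given below cannot separate it from the treatment, because the groups do not overlap in the summed marker level. All 12 epithelium markers had a positive change and 2 rose, with a median of 0.83. The 12 summed to 1283 to 2991 FPKM in tamoxifen and 638 to 1030 FPKM in vehicle tumors, highest in tamoxifen replicate 4 and lowest in vehicle replicate 3, the tumors in which most of the defense genes were highest and lowest. Cldn4, a tight junction protein, averaged 52.6 ± 27.3 FPKM in tamoxifen and 6.13 ± 2.92 FPKM in vehicle tumors (SD, n = 4 each; log2 fold change 2.87, limma adjusted p = 0.00765). The keratin Krt18 averaged 79.0 ± 45.6 FPKM in tamoxifen and 24.4 ± 5.91 FPKM in vehicle tumors (SD, n = 4 each; log2 fold change 1.55, limma adjusted p = 0.0391), a call kept without tamoxifen replicates 3 or 4 and lost without each of the other 6 libraries (adjusted p up to 0.109). Epcam, the pan-epithelial adhesion protein, measured 256, 205, 139 and 383 FPKM in tamoxifen tumors, against 139, 145, 94.3 and 132 FPKM in vehicle tumors (limma adjusted p = 0.13), and passed without tamoxifen replicate 3 (1.11, adjusted p = 0.0471). Fewer cells of a type and less RNA per cell cannot be told apart in bulk tumors. Markers of the GIST lineage moved the other way: 5 of 6 had a negative change, with a median of -0.73, and they summed to 1055 to 1501 FPKM in tamoxifen and 1480 to 2200.3 FPKM in vehicle tumors. Edn3, an endothelin peptide gene on that list, fell to 187 ± 49.9 FPKM in tamoxifen tumors, against 383 ± 75.3 FPKM in vehicle tumors (SD, n = 4 each; log2 fold change -1.05, limma adjusted p = 0.0333), a call kept without tamoxifen replicate 1 and lost without each of the other 7 libraries (adjusted p up to 0.0903). Their part in the result was not tested. Kit, the receptor that drives these tumors, was at 447 ± 82.1 FPKM in tamoxifen and 760 ± 161 FPKM in vehicle tumors (SD, n = 4 each; limma adjusted p = 0.0674), and passed without tamoxifen replicate 3 or vehicle replicate 1 (adjusted p = 0.049 and 0.0466).

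With the mean log2 level of the 12 epithelium markers added to the fit, an alternative chosen after seeing the data, the log2 fold changes of 6 of the 9 genes turned negative: Reg3b (-0.58), Reg3g (-0.65), Retnlb (-0.61), Nos2 (-0.21), Duox2 (-0.14) and Lypd8 (-0.16), with limma adjusted p of 0.538 to 0.911. Duoxa2 was 0.18 and Lcn2 was 1.63. Pigr moved to -2.13 (SE 0.43, limma adjusted p = 0.107). The covariate differs between the groups, which do not overlap in its summed level, so this fit cannot separate it from the treatment. In all, 5 genes passed in this fit.

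**Figure D3:**
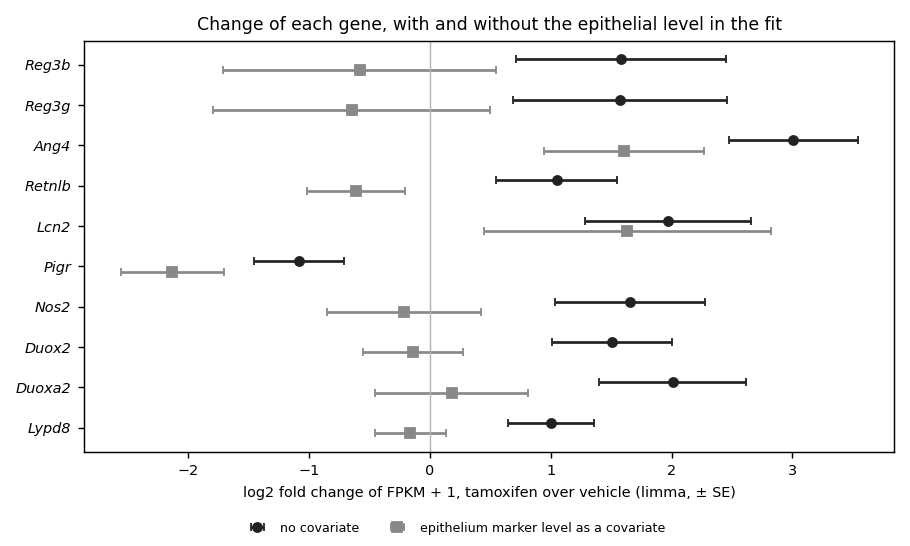
Log2 fold change of FPKM + 1, tamoxifen over vehicle (horizontal axis), with its standard error, for the 10 genes in the limma fit without a covariate (black circles) and with the mean level of the epithelium markers as a covariate (grey squares). Pigr moves from -1.09 to -2.13 and Lypd8 from 1.00 to -0.16.

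Expressed per unit of Epcam within each library, the members divided in another way. The Lypd8 to Epcam ratio was 9.71, 8.62, 12.1 and 11.4 in tamoxifen tumors, against 10.7, 10.9, 8.06 and 8.54 in vehicle tumors, so the groups overlapped. Pigr to Epcam was 0.254, 0.474, 0.258 and 0.33 in tamoxifen tumors, against 0.993, 1.35, 1.24 and 1.45 in vehicle tumors. All tamoxifen ratios lay below all vehicle ratios for 1 of the 9 genes, Pigr, and above for 0 of 9. Among the 15022 other tested genes, 22.8% had all ratios to Epcam below in tamoxifen tumors and 0.739% had all above. Reg3b ran from 0.733 to 1.32 of Epcam in tamoxifen and from 0.144 to 2.39 in vehicle tumors, and Retnlb from 0.369 to 0.756 in tamoxifen and from 0.341 to 0.635 in vehicle tumors. Duox2 ran from 0.126 to 0.23 in tamoxifen and from 0.0561 to 0.154 in vehicle tumors. For Ang4, described without a test, the ratio was 0.0769 to 0.158 in tamoxifen and 0.00612 to 0.0364 in vehicle tumors. This ratio was chosen after the values were seen.

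**Figure D4:**
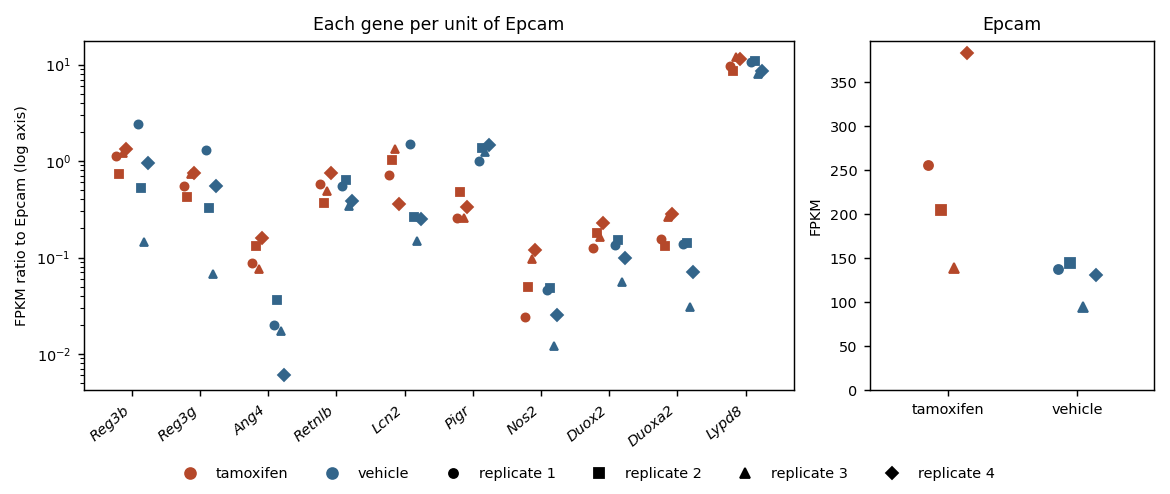
Left, FPKM of each gene divided by the FPKM of Epcam in the same library, on a log axis, with tamoxifen tumors (red) left of vehicle tumors (blue); right, Epcam itself in FPKM. Pigr separates the groups, at 0.254 to 0.474 in tamoxifen and 0.993 to 1.45 in vehicle tumors, while Lypd8 stays between 8.06 and 12.1 in all 8 libraries.

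The cytokine genes Il22, Il17a and Il13 had low levels. Il22 was at 0 to 0.332 FPKM in tamoxifen and 0 to 0.0246 FPKM in vehicle tumors, Il17a at 0.38 to 1.57 FPKM in tamoxifen and 0.0827 to 0.512 FPKM in vehicle tumors, and Il13 below 0.1 FPKM in all libraries, all 3 below the filter. Of 10 tested genes of the IL-22 and IL-17 axis, 0 rose or fell, with a median of 0.26. Il17ra, a subunit of the IL-17 receptor, measured 9.72 ± 2.61 FPKM in tamoxifen and 5.91 ± 0.772 FPKM in vehicle tumors (SD, n = 4 each; limma adjusted p = 0.0976), and passed without tamoxifen replicate 1 (adjusted p = 0.0471). Of 6 tested genes of the type 2 axis, which induces Retnlb, 1 rose, and the median change was 0.23. The 1 that rose was Chi3l3, which encodes a chitinase-like protein. It measured 10.9 ± 7.86 FPKM in tamoxifen tumors (n = 3, with 1 failed estimate) and 1.28 ± 1.28 FPKM in vehicle tumors (SD, n = 4; limma adjusted p = 0.0457). That call was kept without vehicle replicate 2 and lost without each of the other 7 libraries (adjusted p up to 0.111). Of 11 bacterial sensors, 0 rose and 1 fell: Nod1, a cytosolic sensor of peptidoglycan, measured 7.57 ± 1.15 FPKM in tamoxifen and 13.4 ± 2.95 FPKM in vehicle tumors (SD, n = 4 each; limma adjusted p = 0.0439), a call lost without each of the 8 libraries (adjusted p up to 0.103).

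Of 17 tested genes for other secreted antimicrobial proteins, 2 rose and 1 fell, with a median change of 0.48. The calprotectin subunit genes S100a8 and S100a9, which neutrophils express strongly, rose to 108 ± 79.8 FPKM and 57.6 ± 39.7 FPKM in tamoxifen tumors, against 5.42 ± 2.87 FPKM and 4.26 ± 1.90 FPKM in vehicle tumors (SD, n = 4 each; limma adjusted p = 0.014 and 0.0165). Pglyrp2, an amidase that cleaves bacterial peptidoglycan, fell to 1.74 ± 0.271 FPKM in tamoxifen tumors, against 4.5 ± 0.571 FPKM in vehicle tumors (SD, n = 4 each; log2 fold change -1.0, limma adjusted p = 0.00927). Of 8 colonocyte markers, 0 passed, with 4 positive and 4 negative changes and a median of 0.38. The one with the smallest p was Slc26a3, the chloride and bicarbonate exchanger of the colon, with a negative change. It measured 19.98 ± 14.1 FPKM in tamoxifen and 51.9 ± 20.6 FPKM in vehicle tumors (SD, n = 4 each; limma adjusted p = 0.0988). Slc26a3 passed without tamoxifen replicate 1 (adjusted p = 0.0365). T cell markers ran against the defense genes: 4 of 6 fell, led by Cd3e, part of the T cell receptor, at 8.38 ± 0.475 FPKM in tamoxifen and 19.5 ± 2.94 FPKM in vehicle tumors (SD, n = 4 each; limma adjusted p = 0.00653). Of these 4, Cd3d was lost without tamoxifen replicate 2, and Cd3d and Cd8a without vehicle replicate 2 or 4 (adjusted p up to 0.0612). With scaling to the same total FPKM, Cd3e was the 1 of the 4 that still passed (adjusted p of Cd2 0.0969, Cd8a 0.0773 and Cd3d 0.122).

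The sample identifiers fall in 2 ranges, which give 2 tamoxifen and 3 vehicle tumors in the lower range and 2 tamoxifen tumors and 1 vehicle tumor in the upper. Each of the 9 genes chosen by name had the same sign of change within both. Ang4 is left out of this count, because it was picked for its rise in these tumors. For Duoxa2 the difference in mean log2 level was 1.5 in the lower and 2.62 in the upper range, for Lypd8 0.79 and 1.27, for Nos2 0.84 and 2.57, and for Pigr -0.88 and -1.48. The libraries had 14176 to 14841 symbols at 1 FPKM or more, and absolute read depth is unknown.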

How the data were processed

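RNA from 8 explanted tumors was sequenced with standard Illumina libraries, per the labels' protocols. The deposited table gives FPKM per gene and library with a status beside each value, per the file headers. STAR 2.3, Cufflinks, Cuffdiff and build mm9 are named in the submitters' processing notes. The annotation, strandedness, scaling and treatment of reads that map to several genes are unknown here, the sources used not giving them. Groups and replicate numbers come from the sample titles, and columns were matched by the identifier in the sample description, with none left over.

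The 178 values with a failed status were set to missing, and FPKM was added up over rows that share a symbol (37980 genes, 34586 symbols). A total of 15023 genes with a mean of at least 1 FPKM and at least 2 estimates per group were tested on log2(FPKM + 1) with limma 3.58.1 in R 4.3.3 (eBayes with trend, 2-sided, Benjamini-Hochberg over all tested genes, threshold 0.05), so fold changes of low genes are understated. All 10 members passed the filter. The procedure was tested on simulated data. The members and the 20 gene lists were chosen with earlier results of these data known. Named genes were the members, Etv1, Kit, the paralogs Duox1 and Duoxa1, 10 defining genes of lists, and per list up to 4 genes past the threshold with the smallest p, or 1 where none passed. Alternatives were other pseudocounts, filters, scalings, covariates, weights, robust limma, a replicate block and leaving out each library. Same-numbered tumors deviated together with correlations of -0.156 to 0.145, so the numbers were not taken as pairs. Promoter windows are RefSeq's on GRCm38.p6, while gene loci are those of the deposited table in mm9. In the deposited table the 1 member whose locus another gene shares is Duoxa2, with Duoxa1. The result of 1 of the 20 lists is not reported here.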

Additional observations from a re-analysis of the deposited data

Results flagged for a closer look

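In 87 groups of 4 values, 7 single values lay apart from the other 3 of their group by more than Dixon's 95% critical value allows for the gap over the group's range. For independent, normally distributed values, chance flags about 1 in 20 such groups. The values here are FPKM without a log, and the groups share the same libraries, so that rate may not hold. Among the members, Lcn2 in vehicle replicate 1 was 211 FPKM, against 14.0 to 38.5 FPKM in the other vehicle tumors. Duoxa2 in tamoxifen replicate 4 was 107 FPKM, against 26.8 to 39.8 FPKM in the other tamoxifen tumors. In the same tumor Krt18 was 147 FPKM (53.7 to 61.3 in the others), Clca3 was 11.1 FPKM (2.20 to 3.63 in the others), and Mmp7, a Paneth cell protease, was 10.6 FPKM (0.571 to 1.06 in the others). In tamoxifen replicate 3, Ly6g was 97.9 FPKM (158 to 169.8 in the others) and Sdc1, a surface proteoglycan of plasma cells and epithelium, was 141 FPKM (59.4 to 69.4 in the others).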

How the results depend on the processing

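The count of genes past the threshold, 819 as reported above, was 534 with a mean of at least 5 FPKM, 229 with scaling to the same total FPKM, 252 with a replicate block and 5 with the epithelium marker level as a covariate, and 268 to 856 when 1 library was left out. Under scaling to the same total, 154 genes were higher and 75 lower, against 358 and 461 without that scaling. Without vehicle replicates 1 to 4 the count was 450, 288, 268 and 274, and without tamoxifen replicates 1 and 2 it was 544 and 378. The other settings stayed within 1.5 times.

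For the 9 tested members, 164 of 171 values under alternatives kept their direction and their side of the threshold. Lcn2 passed without vehicle replicate 1, and Ang4 moved to 1.61 with the epithelium covariate. With that covariate the log2 fold changes reversed for Reg3b (-0.58), Reg3g (-0.65), Retnlb (-0.61), Nos2 (-0.21), Duox2 (-0.14), Lypd8 (-0.16), Epcam (-0.12), Cdh1 (-0.10), Muc2 (-0.49), Lyz1 (-0.22) and Mmp7 (-0.78). Epcam and Cdh1 are themselves among the markers averaged in that covariate, so the fit itself lowers their changes. The cause of the other reversals was not tested. The replicate block changed no member's call (adjusted p of Pigr 0.06), and of the 4 T cell calls it kept Cd3e and lost Cd2 (0.0522), Cd8a (0.06) and Cd3d (0.0539). It also lost Retnlg (0.0981), Ccr10 (0.0709), Nod1 (0.0682) and Edn3 (0.0664). Il1b reversed with libraries weighted by quality (0.11) and without single libraries (-0.74 to 0.16). Leaving out vehicle replicate 3 lowered Reg3b to 0.75 and Reg3g to 0.69, and leaving out vehicle replicate 1 raised them to 2.25 and 2.23. With only FPKM and 4 tumors a group, depth is unknown and the differences of members that vary several-fold within a group could not be resolved.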
